A study of Homo sapiens with 6 samples.

Results

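The 10 apolipoprotein genes APOA1, APOA2, APOA4, APOA5, APOB, APOC1, APOC3, APOE, APOH and APOM were examined for peaks of lysine acetylation (Kac) and lysine benzoylation (Kbz), out of 20033 protein-coding genes of GENCODE 44. They were named as a family and chosen by the peaks of the 3 deposited lists over each gene body plus 5 kb on either side, so their peak calls are a description and carry no test. The series holds ChIP-seq libraries of cells labelled HepG2, a human hepatoma line, with 1 library per group. The untreated groups are input, Kac and Kbz, and the SB groups are the same from cells given 10 mM sodium benzoate (SB) for 24 h before harvest. All groups share the same serum-containing medium. Peak lists of control Kac, SB Kac and SB Kbz were used; per the labels no Kbz peaks were identified in control cells. The antibodies bind any acetylated or any benzoylated lysine and do not tell which histone or residue carried the mark.

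Apolipoproteins wrap the lipid droplets of plasma lipoproteins, keep them soluble and steer them to receptors and enzymes. Liver and intestine are their main sources, and several of their genes lie in clusters whose members share regulatory sequence. Acetylated lysine on histones is found at active promoters and enhancers, and benzoylated lysine is an acyl mark that SB supplies through benzoyl-CoA.

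No group has a replicate, so the spread between libraries is unknown and no comparison of lists carries a test or an error. Sequencing depth was unknown, and a deeper library gives more and longer peaks from the same chromatin. In bulk chromatin, fewer marked cells and weaker marking per cell cannot be told apart. Control Kac had 70326 peaks, SB Kac 63282 and SB Kbz 24308. The fold of a peak is the authors' linear ratio of its read density over background, averaged over the peak, and it is ranked here only within its own list. The liver label was checked against 10 marker genes of liver and HepG2. Only 3 of them had a control Kac promoter peak, 4 an SB Kac one, and 0 a Kbz one. ALB, SERPINA1, FGA, FGB, AMBP and FOXA2 had no promoter peak in any list, and the nearest control Kac peak to the ALB start lay 38283 bp away. The promoters of TTR and TF had Kac peaks with folds of 3.51 and 4.14 in control Kac, where the median of the list was 3.11. In SB Kac their folds were 3.01 and 2.51, where the median was 2.98. HNF4A had weak ones in both conditions, and AFP had one in SB Kac alone. Of the liver genes with a promoter peak, only TF in control Kac had a peak within 3 kb of its representative start, 2885 bp away. The others counted through alternative starts. The peak nearest to the representative TTR start was 3291 bp away in control Kac and 35417 bp in SB Kac. Of 5 intestinal marker genes, 5 had promoter peaks in both Kac lists and 2 in Kbz. The blood cell markers PTPRC, CD3E and CD14 had no promoter peak in any list. Of 4 fibroblast markers 3 had Kac and 2 Kbz promoter peaks. For comparison, promoter peaks were present at 76.5% (control Kac), 75.7% (SB Kac) and 64.6% (Kbz) of all coding genes. With shares this high and so few genes per marker list, the intestinal and fibroblast counts are not read as a sign of tissue. The defining liver genes were thus largely without peaks, and the part of this in the results was not tested.

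Of the apolipoprotein genes, 9 had peaks in both Kac lists and APOB had none. A promoter was the stretch within 3 kb of the start site (TSS) of any annotated transcript. A promoter peak was present at 9 of 10 genes in control Kac, where 76.5% of all protein-coding genes had one, and at 9 of 10 in SB Kac, against 75.7%. In Kbz the count was 6 of 10, against 64.6%: APOA1, APOA2, APOA5, APOC1, APOE and APOM. The remaining members with Kac but no Kbz at the promoter were APOA4, APOC3 and APOH, 3 of 10 where all coding genes gave 9.38%. No member had a promoter peak in control Kac and none in SB Kac, a state of 3.01% of coding genes, and none had the reverse, at 2.13%. The first of these counts moved with the definition, to 2 (APOA4 and APOH) at a −log10 q of at least 2 and to 1 (APOA1) within 1 kb of a TSS. Within 1 kb the Kbz count was 3, and requiring a −log10 q of 5 left 4 members in control Kac and 5 in SB Kac. The shares of all coding genes above are for 3 kb and the full lists, so these altered counts are not to be set against them.

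Fewer members had the start itself under a peak. The canonical TSS, the start of the transcript that the annotation takes as representative, lay under a control Kac peak at 5 of 10 members, against 59.1% of coding genes. The members were APOA4, APOA5, APOC1, APOC3 and APOE. In SB Kac the count was 4 of 10, against 60.4%, without APOC3, whose state of a TSS under control Kac only was that of 3.39% of coding genes. In Kbz it was 2 of 10, against 45.8%, and the members were APOA5 and APOC1. At APOA4 and APOE the TSS was under both Kac lists and not under Kbz, as at 10.9% of coding genes. APOA1, APOA2 and APOM had promoter peaks in all lists but no peak over the canonical TSS, as did 6.52% of coding genes. With members chosen by their peaks, these counts are a description.

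**Figure D1:**
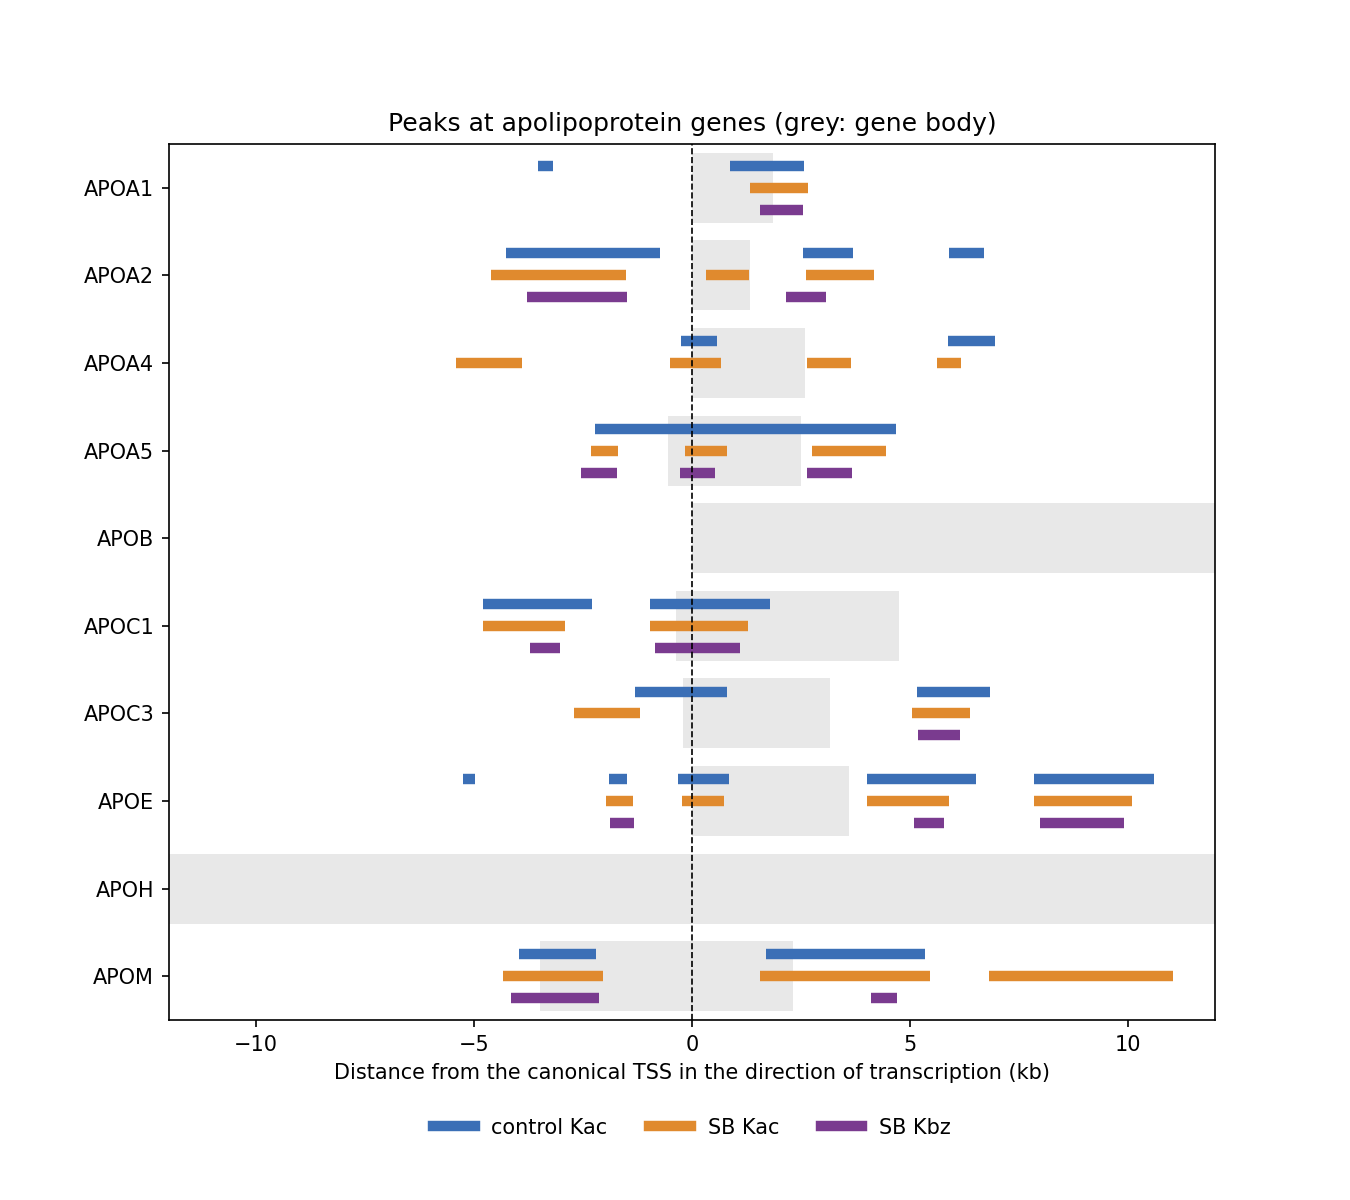
Peaks of control Kac (blue), SB Kac (orange) and SB Kbz (purple) at the 10 genes, by distance from the canonical TSS in kb along the direction of transcription, with gene bodies in grey. APOA5 and APOC1 have peaks of all lists over the TSS, APOB has none, and the APOH peaks, 25910 bp or more upstream, are out of view.

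A feature that the rule did not use was the base composition at the start sites. CpG dinucleotides are rare in most of the genome and frequent at the promoters of broadly used genes. Over the 300 bp from 250 before to 50 after the canonical TSS, the ratio of observed to expected CpG had a median of 0.241 over the 10 members, from 0.0516 at APOA2 to 0.531 at APOB, against a median of 0.775 over 20032 coding genes. Of the 10 members 9 were among the 5008 coding genes with the lowest ratios, up to 0.420, and the exception was APOB, the member without peaks. The sequences of starts under peaks of all 3 lists (APOA5 and APOC1), under Kac only (APOE and APOA4) and far from any peak (APOH) are set beside that of SREBF1, a transcription factor gene of lipid synthesis with peaks of all lists over its TSS, to show how few CpG the apolipoprotein starts hold. They are RefSeq promoters of GRCh38.p14, 5′ to 3′ on the strand of the gene, with CpG in capitals, at chr11:116791830-116792129 (minus), chr19:44914422-44914721 (plus), chr19:44905546-44905845 (plus), chr11:116823255-116823554 (minus), chr17:66229366-66229665 (minus) and chr17:17836937-17837236 (minus) in the order given. The RefSeq start of APOC1 is 64 bp from the canonical one.
APOA5: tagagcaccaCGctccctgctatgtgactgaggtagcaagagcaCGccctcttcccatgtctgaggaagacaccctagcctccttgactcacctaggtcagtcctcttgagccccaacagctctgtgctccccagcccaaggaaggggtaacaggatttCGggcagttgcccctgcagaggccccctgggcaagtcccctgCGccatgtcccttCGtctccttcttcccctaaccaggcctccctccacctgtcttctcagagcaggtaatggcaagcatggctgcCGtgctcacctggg
APOC1: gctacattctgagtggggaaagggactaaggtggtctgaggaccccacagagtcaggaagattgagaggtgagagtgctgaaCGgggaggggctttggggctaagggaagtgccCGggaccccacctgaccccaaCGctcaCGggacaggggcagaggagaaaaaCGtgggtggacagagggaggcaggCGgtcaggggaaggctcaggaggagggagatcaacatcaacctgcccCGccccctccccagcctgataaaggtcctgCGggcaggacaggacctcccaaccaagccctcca
APOE: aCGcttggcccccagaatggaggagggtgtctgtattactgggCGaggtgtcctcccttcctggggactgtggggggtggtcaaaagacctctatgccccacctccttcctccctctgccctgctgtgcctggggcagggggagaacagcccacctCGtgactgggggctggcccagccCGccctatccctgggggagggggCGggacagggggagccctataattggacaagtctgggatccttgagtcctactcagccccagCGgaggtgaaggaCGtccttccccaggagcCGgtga
APOA4: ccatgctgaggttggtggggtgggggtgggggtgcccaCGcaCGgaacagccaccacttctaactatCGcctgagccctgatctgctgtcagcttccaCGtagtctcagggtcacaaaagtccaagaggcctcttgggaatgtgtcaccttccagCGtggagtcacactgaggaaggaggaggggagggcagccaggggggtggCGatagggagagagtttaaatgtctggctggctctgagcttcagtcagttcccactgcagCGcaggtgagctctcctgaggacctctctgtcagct
APOH: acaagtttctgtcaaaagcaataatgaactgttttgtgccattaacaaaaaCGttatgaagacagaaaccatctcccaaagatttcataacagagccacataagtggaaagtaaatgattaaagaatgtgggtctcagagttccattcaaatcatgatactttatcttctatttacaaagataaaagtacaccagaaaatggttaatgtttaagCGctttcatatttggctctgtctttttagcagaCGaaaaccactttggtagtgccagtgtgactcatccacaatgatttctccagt
SREBF1: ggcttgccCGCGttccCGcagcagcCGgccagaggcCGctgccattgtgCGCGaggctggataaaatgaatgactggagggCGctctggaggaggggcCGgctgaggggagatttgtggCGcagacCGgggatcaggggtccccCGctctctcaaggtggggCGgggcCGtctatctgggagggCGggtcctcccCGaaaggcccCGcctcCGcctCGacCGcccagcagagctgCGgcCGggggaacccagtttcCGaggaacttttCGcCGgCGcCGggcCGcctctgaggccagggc

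The members shown had 6 CpG at APOA5, 8 at APOC1, 8 at APOE, 7 at APOA4 and 3 at APOH, and SREBF1 had 28. The same table held entries for 7 of the 10 members, the others being APOA2 and APOM, with 1 and 3 CpG. APOA1, APOB and APOC3 had no entry. A few short motifs were searched in these 7 sequences on both strands, and no motif contains another. GGGCGG, the GC box, was found in 2 of them, APOC1 and APOE, and in 62.4% of 15072 coding promoters of the table. AGGTCA, the core to which nuclear receptors bind, was found in APOA5 only and in 11.1% of promoters, and GTTAAT, the core of the HNF1 site, at 2 places in APOH only and in 4.86%. CCAAT was in APOE only and in 36.7%. TATAAA, TTGCNNAA and CAAAGTCCA were in 0 of the 7 and in 9.36%, 7.92% and 0.312% of promoters.

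The members were also set beside those 5008 CpG-poor genes. Of these, 44.9% had a control Kac promoter peak, 41.9% an SB Kac one and 24.7% a Kbz one. Of the 9 members among them, 9, 9 and 6 had one in the same order. The TSS was under control Kac in 21.0% of the CpG-poor genes, SB Kac in 18.6% and Kbz in 6.79%, and in 5, 4 and 2 of the 9 members. Thus the 6 members with Kbz at the promoter stand beside 64.6% of all coding genes and 24.7% of those with starts of like composition. Since the members were chosen by their peaks, nothing particular to them is read from this. In the 5008 genes richest in CpG the promoter shares were 93.7%, 94.0% and 86.2%.

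**Figure D2:**
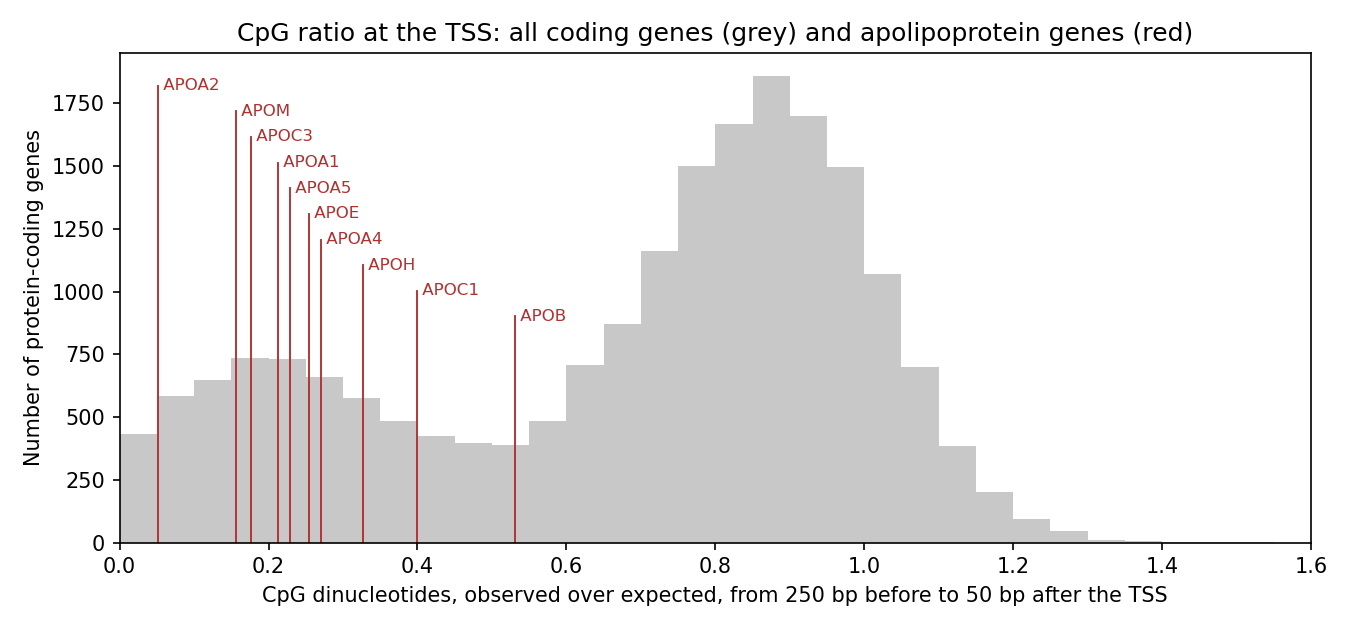
Number of protein-coding genes (grey bars, 20032 genes) by the ratio of observed to expected CpG from 250 bp before to 50 bp after the canonical TSS, with the 10 apolipoprotein genes as red lines. The members lie between 0.0516 and 0.531, left of the main mass of genes, whose median is 0.775.

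APOA1 (ENSG00000118137.10, chromosome 11, 116835751 to 116837622, minus strand, hg38) encodes the main protein of high-density lipoprotein. The control Kac peak reached from 880 to 2562 bp downstream of the TSS, the SB Kac peak from 1327 to 2669 bp and the Kbz peak from 1556 to 2538 bp. All of them covered coding exon and the untranslated end of the gene, not the start. They were among the strong peaks of their lists, with folds of 5.49 (control Kac), 5.90 (SB Kac) and 7.09 (Kbz), at percentiles 96.6, 95.2 and 95.5. The Kbz peak was 983 bp long and lay whole inside both Kac peaks. A further control Kac peak of 346 bp, 3181 to 3526 bp upstream, had no counterpart in SB Kac.

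APOA2 (ENSG00000158874.11, chromosome 1, 161222292 to 161223631, minus strand), the next most abundant protein of these particles, lay between peaks. Upstream, a control Kac peak ended 738 bp before the TSS, an SB Kac peak 1511 bp before it and a Kbz peak 1491 bp before it. Their folds were 4.48, 5.94 and 6.18, at percentiles 87.5, 95.4 and 90.2. These upstream peaks also lay within 3 kb of a TSS of TOMM40L, and the SB Kac peak of NR1I3 too, so they cannot be assigned to APOA2 alone. Weaker peaks of all 3 lists stood beyond the other end of the gene, at percentiles 41.0, 45.5 and 29.2. Inside the gene, an SB Kac peak from 330 to 1299 bp downstream of the TSS had no control Kac counterpart, and its fold of 2.38 stood at percentile 3.64. A weak control Kac peak near FCER1G, at percentile 19.2, had no SB Kac counterpart.

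APOM (ENSG00000204444.11, chromosome 6, 31652416 to 31658210, plus strand), the carrier of sphingosine-1-phosphate, had its strongest peaks over an upstream start. The gene has annotated starts from 31652416 on, before the canonical TSS at 31655894, and the peaks there covered untranslated exon. Their folds in control Kac, SB Kac and Kbz were 6.17, 5.80 and 5.81, at percentiles 98.8, 94.7 and 86.8. They also lay within 3 kb of a TSS of BAG6. The nearest edge was 2189, 2040 and 2134 bp upstream of the canonical TSS in the same order. A pair of Kac peaks at the end of the gene, 3646 bp in control and 3887 bp in SB cells, extended towards C6orf47, and a Kbz peak of 597 bp lay inside them. Another SB Kac peak, near C6orf47, GPANK1, CSNK2B and ENSG00000263020, reached 502 bp into the window.

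Next, the cluster on chromosome 11 that holds APOA5, APOA4, APOC3 and APOA1 was followed from end to end. APOA5 (ENSG00000110243.12, 116789367 to 116792420, minus strand) encodes an activator of plasma triglyceride clearance. A control Kac peak of 6898 bp, longer than 97.3% of its list, ran from 2211 bp upstream to 4686 bp downstream of the TSS. In SB Kac the same stretch held 3 peaks of 1692, 968 and 633 bp. In Kbz it held 3 as well, of 1039, 798 and 831 bp, and each of them overlapped an SB Kac peak. The middle one covered the TSS in both, from 151 bp upstream to 816 bp downstream in SB Kac and from 272 bp upstream to 525 bp downstream in Kbz. Its fold was at percentile 92.1 of SB Kac and 80.1 of Kbz, while the long control peak stood at percentile 69.0. The fold of a long broad peak is averaged over its whole length, so these ranks do not compare the height at the TSS. The outer peaks were weaker, at percentiles 59.4 and 45.7 in SB Kac and 18.8 and 7.90 in Kbz, and the control peak and the downstream SB Kac and Kbz peaks were also within 3 kb of a TSS of ZPR1.

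APOA4 (ENSG00000110244.7, 116820700 to 116823304, minus strand), a protein of intestinal lipoproteins, had no Kbz peak in its window; the nearest began 11780 bp upstream of its TSS. A control Kac peak of 822 bp covered the TSS at percentile 30.3, and an SB Kac peak of 1161 bp covered it at percentile 15.9. Its −log10 q of 1.58 in SB Kac was near the lowest of the list, 1.31. An SB Kac peak of 1007 bp past the end of the gene had no control counterpart and stood at percentile 10.5.

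APOC3 (ENSG00000110245.12, 116829706 to 116833072, plus strand), an inhibitor of triglyceride clearance, was the only member whose TSS was under a control Kac peak and not under an SB Kac peak. The control Kac peak ran from 1311 bp upstream to 796 bp downstream of the TSS, at a fold of 2.92 and percentile 38.8. The SB Kac peak ran from 2698 to 1189 bp upstream, at a fold of 3.06 and percentile 53.8. They shared 123 bp. Neither was strong, with −log10 q of 2.27 and 2.88, and whether the acetylation at the TSS differed between conditions cannot be read from calls at this level. No Kbz peak lay within 3 kb, and the one in its window, 5177 bp downstream, was that of APOA1 described above.

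On chromosome 19 APOE and APOC1 stand side by side. APOE (ENSG00000130203.10, 44905791 to 44909393, plus strand) encodes the ligand by which remnant particles bind receptors of the low-density lipoprotein receptor family. Its TSS was under a control Kac peak of 1157 bp at percentile 71.7 and an SB Kac peak of 961 bp at percentile 58.8, and under no Kbz peak. A Kbz peak of 556 bp lay 1320 bp upstream of the TSS, at percentile 18.4, and overlapped weak Kac peaks in both conditions, at percentiles 21.8 and 50.4.

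APOC1 (ENSG00000130208.10, 44914247 to 44919349, plus strand), an exchangeable protein of several lipoprotein classes, was covered at the TSS in all lists. The peaks were 2762 bp long in control Kac, 2253 bp in SB Kac and 1930 bp in Kbz, with folds of 4.63, 5.51 and 5.20 at percentiles 89.4, 93.1 and 78.8. The strongest Kbz peak of the whole family lay between the genes, from 44910887 to 44911572, with a fold of 7.71 at percentile 97.5. It was short, 686 bp (percentile 30.5 of length). It overlapped no annotated exon of either gene, and stood 5091 bp downstream of the APOE TSS and 3036 bp upstream of the APOC1 TSS. Kac peaks of 2488 bp in control and 1879 bp in SB cells, with folds of 5.32 and 5.45, enclosed it and began at the same base, 44909824. No other coding gene had a TSS within 3 kb of these peaks.

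This Kbz peak was CpG-poor too. The central 300 bp, at chr19:44911080-44911379 (hg38, plus strand, CpG in capitals), had 9 CpG and a ratio of 0.312, against a median of 0.546 over the same central stretch of the 1470 Kbz peaks of chromosome 19. None of the motifs searched at the starts was found in it. Over the same stretch of those 1470 peaks, GGGCGG was in 43.4%, CCAAT in 30.3% and AGGTCA in 18.1%. Each of the other motifs was in 7.28% or less, so each motif was absent from most of these peaks.
Peak between APOE and APOC1: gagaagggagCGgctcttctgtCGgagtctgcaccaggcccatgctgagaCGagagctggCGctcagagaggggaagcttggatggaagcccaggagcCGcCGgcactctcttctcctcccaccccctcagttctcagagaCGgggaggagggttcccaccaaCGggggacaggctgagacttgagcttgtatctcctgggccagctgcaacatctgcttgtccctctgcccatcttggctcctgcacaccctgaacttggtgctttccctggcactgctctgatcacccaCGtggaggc

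APOB and APOH were the members with the least. APOB (ENSG00000084674.15, chromosome 2, 21001429 to 21044073, minus strand) encodes the structural protein of very-low-density and low-density lipoprotein. It had 0 peaks in each list over its body plus 5 kb, a state shared with 15.5% of coding genes, while 21.2% had no promoter peak. The nearest peaks were a trio at about the same place, 220679, 220551 and 220550 bp downstream of the TSS in control Kac, SB Kac and Kbz. On the upstream side the next control Kac peak was 2307077 bp away, the next SB Kac peak 2307188 bp and the next Kbz peak 534915 bp. APOH (ENSG00000091583.11, chromosome 17, 66212033 to 66256525, minus strand) encodes beta-2-glycoprotein I, a phospholipid-binding plasma protein. Its canonical TSS lay in a stretch without peaks of 54858 bp in control Kac, 50250 bp in SB Kac and 130139 bp in Kbz. The member counts as having promoter peaks only through a distant alternative start, where an intronic control Kac peak of 973 bp stood at percentile 38.9 and an SB Kac peak of 528 bp at percentile 14.6.

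The windows were then compared base by base. Some of them overlap, so the 10 genes give 7 separate stretches of 197809 bp in all. Counting each peak once, 17 of control Kac, 19 of SB Kac and 11 of Kbz lay in these stretches and covered 31289, 27400 and 12676 bp, or 15.8%, 13.9% and 6.41%. An SB Kac peak overlapped 14 of the 17 control Kac peaks, and a control Kac peak overlapped 17 of the 19 SB Kac peaks. All 11 Kbz peaks overlapped both Kac lists. By bases, 67.0% of the control Kac cover was also SB Kac cover, against 60.4% over the whole lists. Of the Kbz cover 92.0% was inside SB Kac, against 93.6% over the whole lists. Kbz took up 42.6% of the SB Kac cover, against 26.2% over the whole lists. The windows are gene bodies plus 5 kb chosen by their peaks, and the whole lists also hold peaks far from genes. The shares in windows and over whole lists thus come from unlike sets.

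The share of a window under peaks varied widely among the genes. In control Kac it ran from 0 at APOB and 1.79% at APOH to 45.0% at APOA2 and 52.8% at APOA5. In SB Kac the extremes were 0 at APOB and 0.969% at APOH, and 42.3% at APOM and 49.7% at APOA2. It was lower in SB Kac than in control Kac at 6 genes and higher at APOA2, APOA4 and APOM. The widest gap in one direction was APOA5, with 52.8% in control and 25.2% in SB Kac, and in the other APOA4, with 15.0% and 30.2%. In Kbz it ran from 0 at APOA4, APOB and APOH to 28.5% at APOA2, and it was below SB Kac at each of the 9 genes with Kac peaks. The depth of the libraries moves such sums, and its part was not tested. At the edge of the rule, the last control Kac peak counted for APOE had 29 bp inside its window, and a control Kac peak 48 bp outside that of APOA1 was not counted. The SB Kac cover of APOA4 held 1096 bp of the promoter peak of APOC3. The control Kac peak overlapping that one lay 292 bp outside the APOA4 window. Another 1007 bp came from the peak at percentile 10.5, so the gap at APOA4 is not read as more acetylation.

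**Figure D3:**
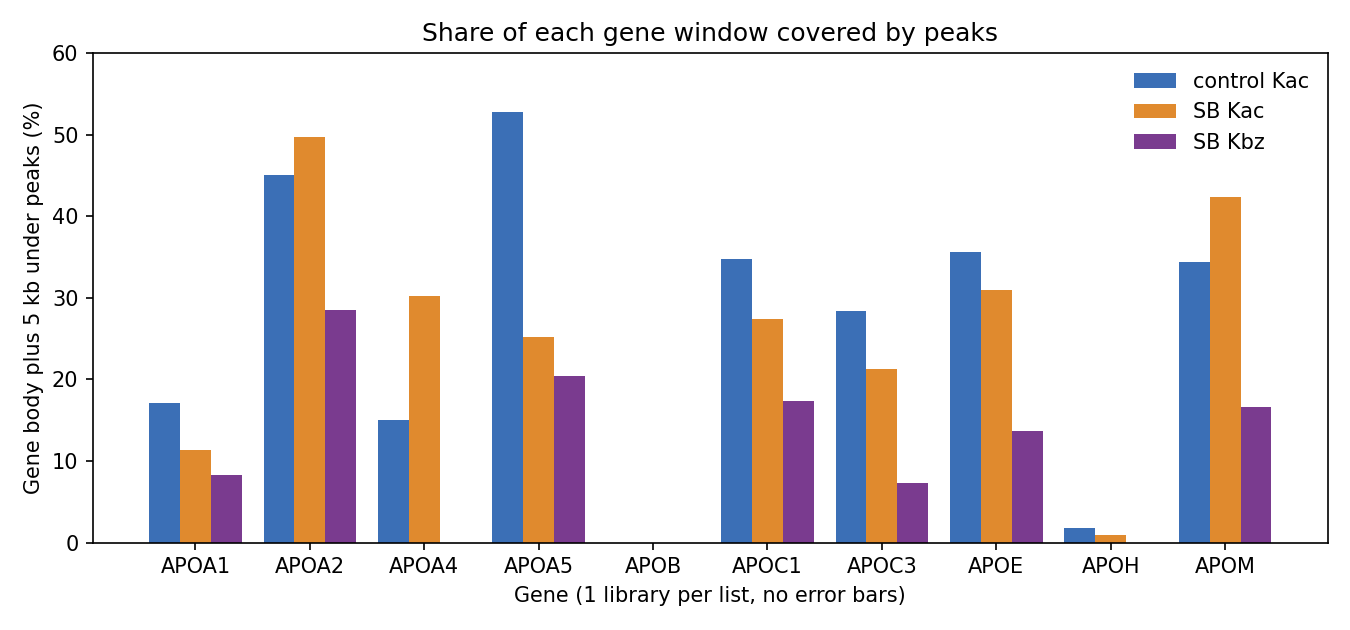
Share (%) of the gene body plus 5 kb under peaks, by gene, in control Kac (blue), SB Kac (orange) and SB Kbz (purple), 1 library each and so without error bars. APOA5 stands at 52.8% in control Kac and 25.2% in SB Kac, APOA4 stands at 15.0% and 30.2%, and APOB is at 0 in each. The SB Kac share of APOA4 includes part of the promoter peak of APOC3.

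The strongest promoter peak of each gene was ranked by fold within its list. The 9 members with a control Kac promoter peak had a median percentile of 71.7, against 83.4 for all coding genes with one. In SB Kac the medians were 92.1 and 86.1, and in Kbz, over 6 members, 88.5 and 69.2. The spread among the members was wide in every list, from 30.3 to 98.8 in control Kac, from 14.6 to 95.4 in SB Kac, and from 18.4 to 97.5 in Kbz. APOA1, APOA2, APOC1 and APOM were at percentile 86.8 or higher in all lists. The peaks ranked for APOA2 and APOM also lay within 3 kb of a TSS of TOMM40L and BAG6. For APOC1 the ranked peak was the one between APOE and APOC1 in control Kac and Kbz, and the one over the TSS in SB Kac. APOA4, APOC3, APOE and APOH were lower, between 14.6 and 71.7 in the Kac lists. APOA5 went from 69.0 in control Kac to 92.1 in SB Kac, where its long peak appeared as separate pieces.

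**Figure D4:**
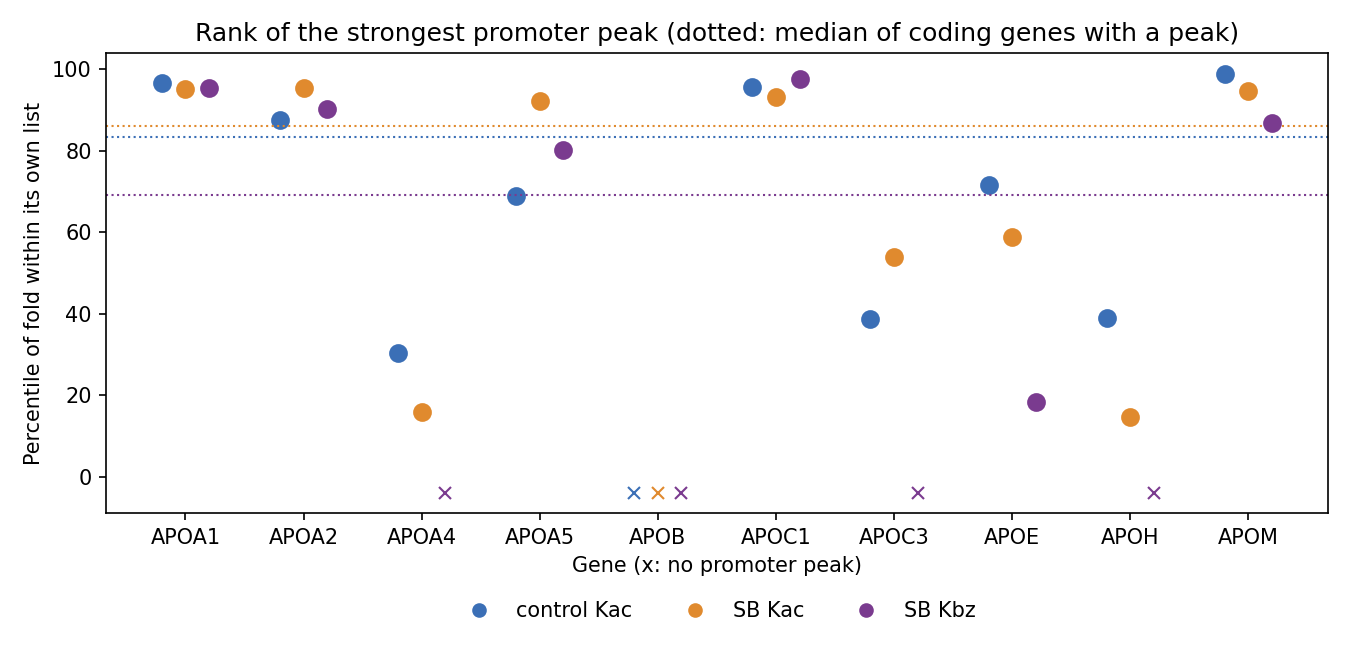
Percentile of fold, within its own list, of the strongest promoter peak of each gene in control Kac (blue), SB Kac (orange) and SB Kbz (purple), with crosses where there is no promoter peak and dotted lines at the medians of all coding genes that have one (83.4, 86.1 and 69.2). APOA1, APOA2, APOC1 and APOM rank high in all lists, and APOA4, APOC3 and APOH have Kac points but a cross for Kbz. The peaks ranked for APOA2 and APOM also lie near starts of other genes.

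Finally, 56 other genes of lipoprotein metabolism were taken from a list by role. Promoter peaks were present at 44 of them for control Kac, at 43 for SB Kac and at 35 for Kbz, or 78.6%, 76.8% and 62.5%, each near the share of all coding genes. The group listed as other apolipoproteins, which also holds the enzyme PON1, had the fewest among the larger groups, with 4, 4 and 2 of 10. APOC2 and APOC4, the remaining genes of the chromosome 19 cluster, had Kac but no Kbz promoter peaks, and APOD, APOL1, LPA, PON1, SAA1 and SAA4 had none. APOL2 and APOF had Kbz, with folds of 4.56 and 3.44 at percentiles 66.8 and 33.1.

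Of the 9 genes of assembly and secretion, 9 had Kac promoter peaks in both conditions and 8 had Kbz, beside 76.5%, 75.7% and 64.6% of coding genes. The highest Kbz folds were at DGAT2, an enzyme of triglyceride synthesis, with 7.20 at percentile 96.0, and MTTP, the lipid transfer protein that starts the APOB particle, with 5.39 at percentile 81.7. The MTTP peak lay 10401 bp from the canonical TSS, at an alternative start. The Kbz peaks of SORT1 and SOAT2 were weak, at percentiles 2.62 and 5.23. TM6SF2 had no Kbz promoter peak. Of 8 receptors and adaptors 7 had Kac in both conditions and 6 had Kbz. SCARB1, the receptor for high-density lipoprotein, had the highest Kbz fold of the list, 11.4 at percentile 99.9, followed in its group by LRP8 with 5.55. CD36 had no promoter peak.

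Of the 6 plasma enzymes and transfer proteins, 6 had a control Kac promoter peak, 5 SB Kac and 4 Kbz. LIPC, hepatic lipase, was the gene of the list with a control Kac but no SB Kac promoter peak, at a fold of 2.88 and percentile 36.1, and that peak lay at an alternative start, 21215 bp from its canonical TSS. LIPA and PLTP led the group in Kbz, with 5.54 and 5.20. The LIPA peak of that fold lay 162346 bp from the canonical TSS, at a distant alternative start, and another Kbz peak covered the canonical TSS. Among 4 efflux transporters 3 had Kac in each condition and 2 had Kbz, ABCG8 with 2.94, from a peak 6477 bp from its canonical TSS, and ABCG5 with 2.82. ABCG5 had Kbz at the promoter without Kac, from a weak peak at percentile 6.78. That peak also lay within 3 kb of the canonical TSS of ABCG8, so it cannot be assigned to ABCG5 alone. Of 5 inhibitors 3 had Kac and 2 had Kbz, ANGPTL4 with 3.48 and MYLIP with 3.26, and ANGPTL8, a regulator of lipoprotein lipase inhibition, had no promoter peak.

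Of 14 transcription factors 12 had Kac promoter peaks in each condition and 11 had Kbz, led by CEBPA with 7.38 and SREBF1 with 6.52. HNF4A, a main regulator of hepatic apolipoprotein genes, had weak Kac promoter peaks, with folds of 2.90 and 2.55, and no Kbz. Those peaks lay 46989 and 47332 bp from its canonical TSS, at alternative starts. FOXA2 and NR1H4, the bile acid receptor, had no promoter peak. No gene of the list had an SB Kac but no control Kac promoter peak.

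**Figure D5:**
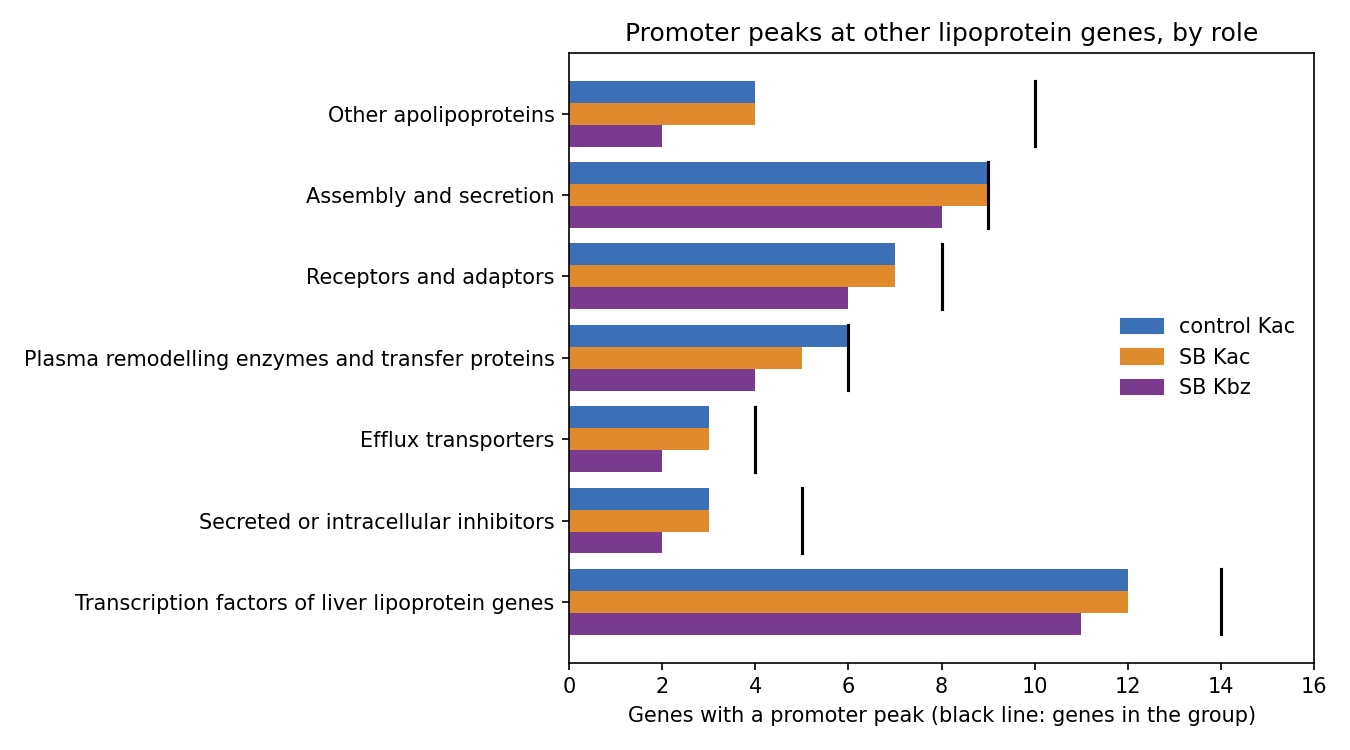
Number of genes with a promoter peak in control Kac (blue), SB Kac (orange) and SB Kbz (purple) in each role group of 56 other lipoprotein genes, with a black line at the number of genes in the group. The group listed as other apolipoproteins, which also holds the enzyme PON1, reaches 4, 4 and 2 of 10, and the assembly group 9, 9 and 8 of 9.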

How the data were processed

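Chromatin of cells labelled HepG2 was digested with micrococcal nuclease and immunoprecipitated with pan anti-Kac or pan anti-Kbz antibodies. Per the labels and the methods of the study, the authors aligned reads to hg38 with Bowtie2 2.2.6, retained reads with a single mapping, discarded duplicates by SAMtools 0.1.19 and called broad peaks with MACS2 2.1.1 per library; the background track of the calls is not given in the sources used here. The deposited fold is a linear ratio over background, the deposited −log10 p and −log10 q are averages over the broad region, and the deposited score is a display value that was not used. The lowest deposited −log10 q was 1.31 in each list. The paper states an FDR of 0.01 for its peak calls, so the lists used here also hold peaks short of that level. The alternative setting of a −log10 q of at least 2 applies a q of 0.01 to the deposited averages.

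Peaks on 24 chromosomes were kept, which dropped 3 control Kac peaks. Genes came from GENCODE 44 and promoter sequences from RefSeq (GRCh38.p14), of which 1917 of 1917 on chromosome 19 equalled hg38. Peaks counted when they shared at least 1 bp with a gene body plus 5 kb or with the stretch within 3 kb of any annotated TSS. A fold percentile is the share of the peak's own list at or below it. No statistical test was possible, as each group is a single library. Overlap counting was tested on planted peaks. On the deposited lists, it gave 0 differences from bedtools 2.31.1 over 60099 window counts; Python 3.11.15 and matplotlib 3.10.9 were used.

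The members and gene lists were chosen with earlier results of these data known. All 10 members are named, with the 3 peaks of highest fold of each list in their windows, neighbouring genes within 3 kb of a peak, and the pathway genes that differed between Kac lists or led a role in Kbz. SREBF1 was shown, and other pathway genes and the peak between APOE and APOC1 were singled out, after their values were seen. The input libraries were not analysed here. Alternatives were other thresholds, windows and start sites. A few genes of the lists are not reported here.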

Additional observations from a re-analysis of the deposited data

How the results depend on the processing

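The 10 counts were recomputed 59 times, each time with a single choice altered; 38 values stayed within 1.5 times of the original, 19 were lower and 2 higher. Sequencing depth is unknown. No paired analysis was possible because a single library stands for each condition, and for the same reason no replicate could be left out.

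With a −log10 q of at least 5, 4 members had a promoter peak in control Kac and 5 in SB Kac, and the windows had 6 peaks of control Kac, 8 of SB Kac and 6 of Kbz. Of the pathway genes, 21 had one by control Kac, 27 by SB Kac and 21 by Kbz. With each list cut to its 15000 peaks of highest −log10 p, the members were 4 and 5 in the Kac lists, the windows had 5 peaks of control Kac and 7 of SB Kac, and the pathway genes with a promoter peak numbered 19 (control Kac), 25 (SB Kac) and 23 (Kbz). These settings keep fewer peaks by construction, and the shares of all coding genes given above hold for the original setting only. Under both, 5 members kept Kbz at the promoter, APOA1, APOA2, APOA5, APOC1 and APOM. Within 1 kb of a TSS, Kbz was left at 3 members, APOA5, APOC1 and APOM. Gene bodies alone overlapped 9 peaks of either Kac list and 4 of Kbz. The count of members with a control Kac but no SB Kac promoter peak, 0 as reported, was 2 at a −log10 q of at least 2, APOA4 and APOH, and 1 within 1 kb of a TSS, APOA1. Merging peaks within 1 kb joined none in any list, so it tested nothing.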
